A study of Mus musculus with 4 samples.

Results

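The genes described here are the 102 respiratory chain genes that their symbols pick out among the 32287 listed features of a single-cell experiment on mouse blood. They comprise 13 genes of the mitochondrial genome and 89 nuclear genes whose symbols begin with Nduf (with a, b, c, s or v), Uqcr, Cox4 to Cox8 or Atp5. Of the nuclear genes, 79 encode subunits (37 of complex I, 8 of complex III, 17 of complex IV and 17 of complex V). The other 10 (8 Ndufaf assembly factors, Ndufa4l2 and Cox7a2l) are accessory genes and are kept out of summed subunit levels. The symbol Ndufb1-ps was left out. All 102 were found in the GENCODE M21 annotation of GRCm38. C57BL/6J mice aged 10 weeks carried acute lymphoblastic leukaemia, for which GFP and BCR-ABL features were added to the reference, and all of them received dasatinib, a tyrosine kinase inhibitor. Blood leukocytes were frozen 1 week into treatment, when all mice were in remission, and treatment continued for 4 weeks. At day 100 mice were classed as Cured (6 mice) or Relapsed (6 mice). Thawed, sorted live cells of 3 mice were pooled per library, which gave 2 Cured and 2 Relapsed libraries. The pool is the replicate, and cells carry no label of their mouse. In comparisons of outcomes p-values measure the spread between pools. In comparisons of classes they measure the spread that remains once each library is fitted as a block. No untreated or leukaemia-free library was used here. The comparison of outcomes asks which features of blood cells in remission differ between mice that were later cured and mice that relapsed.

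The respiratory chain moves electrons from NADH and succinate to oxygen, pumps protons across the inner mitochondrial membrane and drives ATP synthase with the gradient. Complexes I, III, IV and V each combine a few core subunits made inside the mitochondrion with many subunits encoded in the nucleus and imported. The mitochondrial messages are cut from long transcripts of a small circular genome that has its own polymerase, so the mitochondrial and nuclear subunits are transcribed by separate machineries. Lymphocytes keep many mitochondria, whereas mature neutrophils hold few and rely mainly on glycolysis.

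Some mitochondrial genes share bases with their neighbour and stay on a common message. mt-Nd4l (chrM:9877-10173, plus strand) and mt-Nd4 (chrM:10167-11544, plus strand), both core subunits of complex I, overlap by 7 bases. mt-Atp8 (chrM:7766-7969, plus strand) and mt-Atp6 (chrM:7927-8607, plus strand), the mitochondrial subunits of complex V, overlap by 43 bases. Their junctions are shown because the split of counts across them differed between libraries and classes. The bases shared by both reading frames are in capitals with 30 bases on each side (GRCm38, plus strand, chrM:10137-10203 and chrM:7897-7999).
mt-Nd4l and mt-Nd4: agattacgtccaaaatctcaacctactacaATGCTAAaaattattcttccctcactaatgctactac
mt-Atp8 and mt-Atp6: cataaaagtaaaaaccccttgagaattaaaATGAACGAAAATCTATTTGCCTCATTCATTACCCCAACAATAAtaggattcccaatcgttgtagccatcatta

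Values are counts of UMIs (unique molecular identifiers, 1 per captured RNA molecule) from the 10x Genomics 5′ kit. Levels are CPM, the counts-per-million share of all UMIs of the same class and library, and a molecule is counted once whatever its length. The 4 libraries held 16157 barcodes and 7184045 to 10840397 UMIs each. A minimum of 200 genes and a limit of 10% mitochondrial UMIs per barcode left 15439 cells. That limit uses the counts of the mitochondrial genes themselves, so the results were also computed without it and at 5%. Between pairs of libraries 20 to 29 barcode sequences were shared. Cells were gated by UMIs of at least 3 markers of a class and of at most 1 marker of any other class. No doublet caller was run. The gates held 2149 to 3320 B cells, 224 to 393 T cells, 161 to 205 NK cells, 167 to 359 neutrophils and 27 to 108 monocytes per library. Relapsed 1 stood apart. It had the lowest median depth (1738 UMIs per barcode against 2034 to 2330), 281 haemoglobin-dominated barcodes against 23 to 29, and 4201 CPM of red-cell markers in B cells against 214 to 414.

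B cells had the highest share of mitochondrially encoded UMIs and neutrophils the lowest, while nuclear-encoded subunits were highest in NK cells. In the order Cured 1, Cured 2, Relapsed 1 and Relapsed 2, which is kept for all values below, the 13 mitochondrial genes made up 2.25%, 2.41%, 2.92% and 2.47% of B cell UMIs. They made up 2.04%, 2.02%, 2.47% and 2.08% of T cell UMIs and 1.35%, 1.32%, 1.73% and 1.40% of NK cell UMIs. The T cell share was below the B cell share of the same library in all 4 libraries, and all NK cell values lay below all T cell values.

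In monocytes the mitochondrial share was 0.966%, 1.24%, 1.54% and 1.20%. In neutrophils it was 0.240%, 0.286%, 0.447% and 0.244%, on 562, 688, 1612 and 468 UMIs. The exact 95% binomial intervals, which cover counting error only, ran from 0.220% to 0.260% in Cured 1 and from 0.425% to 0.469% in Relapsed 1. The B cell share was 6.53 to 10.1 times the neutrophil share of the same library. Without the 10% limit 4 more neutrophils in Relapsed 1 and 1 more in Relapsed 2 entered. The neutrophil share of Relapsed 1 was then 0.779%, and the B cell share was 3.89 to 9.54 times the neutrophil share. Relapsed 1 gave the highest value in all 5 classes.

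The 79 nuclear-encoded subunits ran in another order. They made up 3.04% ± 0.0577 of NK cell UMIs, 2.67% ± 0.0516 of monocyte UMIs, 2.24% ± 0.0406 of T cell UMIs, 1.94% ± 0.0365 of B cell UMIs and 1.34% ± 0.0993 of neutrophil UMIs (SD, n = 4 libraries). No neighbours in that order overlapped. The mitochondrially encoded UMIs per nuclear-encoded UMI were 1.18, 1.24, 1.52 and 1.24 in B cells and 0.920, 0.880, 1.13 and 0.929 in T cells. They were 0.452, 0.435, 0.574 and 0.447 in NK cells, 0.369, 0.455, 0.576 and 0.455 in monocytes and 0.169, 0.217, 0.370 and 0.173 in neutrophils. NK cells and monocytes overlapped in this ratio. Without the 10% limit the ratio in neutrophils of Relapsed 1 was 0.647, which lay within the range of monocytes (0.402 to 0.720) and above all NK cell values (0.435 to 0.60).

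**Figure D1:**
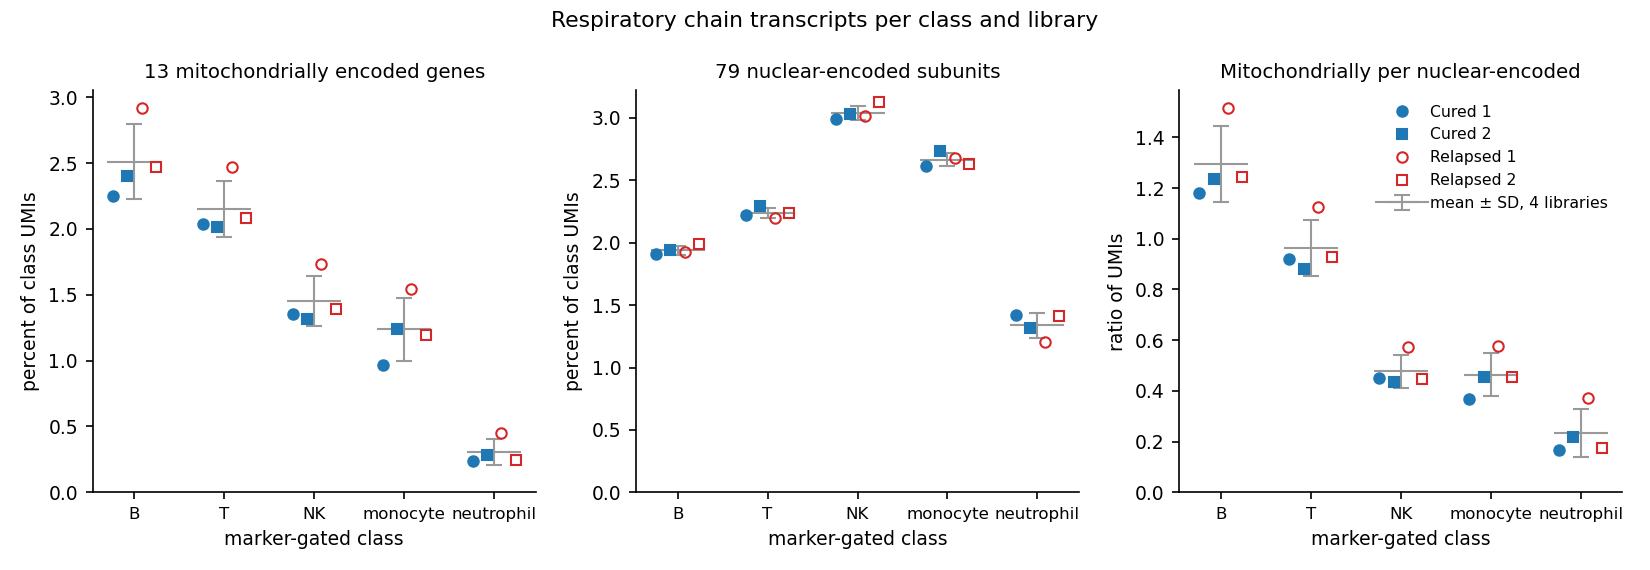
Share of class UMIs from the 13 mitochondrially encoded genes (left), from the 79 nuclear-encoded subunits (middle), and their ratio (right), by marker-gated class. Each symbol is a library, and bars give the mean ± SD of 4 libraries. Relapsed 1 is highest in the left and right panels, and NK cells are highest in the middle panel with a mean of 3.04%.

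Single cells showed the same order. The median B cell had 2.12%, 2.27%, 2.76% and 2.37% mitochondrial UMIs, and the median neutrophil 0.191%, 0.155%, 0.237% and 0.188%. Every B, T and NK cell and monocyte had a mitochondrial UMI, whereas 22.1%, 20.5%, 14.5% and 24.6% of neutrophils had none. Neutrophils were shallower, with medians of 934 to 1120 UMIs per cell against 1862 to 2351 in B cells. After thinning to 1000 UMIs per cell the mean share was 0.281% in neutrophils and 2.44% in B cells. Shallower cells were left out there, so 439 of 933 neutrophils and 10834 of 11371 B cells remained. Thinning to 500 UMIs kept all of them and gave 0.311% and 2.62%. RNA of other cells can enter droplets. The mitochondrial level of neutrophils was 9.87% to 15.3% of that of B cells, beside 0.626% to 2.17% for Igkc and 7.18% to 13.4% for Ighm, which encode immunoglobulin chains. The part of such RNA in the neutrophil values was not tested.

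Classes were compared with B cells by edgeR's quasi-likelihood test on summed UMIs, with the library as a block and Benjamini-Hochberg adjustment over 5630 genes (threshold 0.05). Fold changes are log2 values after TMM scaling, which centres the bulk of genes and is not the ratio of the CPM levels. For NK cells the median over all genes was -0.21 with TMM factors, -0.03 with RLE factors and 0.35 with library totals. Relative to that median the mitochondrial genes stood at -1.10, -1.09 and -1.09, and the nuclear-encoded genes at 0.26, 0.26 and 0.27.

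All 13 mitochondrial genes were lower in NK cells, in monocytes and in neutrophils than in B cells, where 35.3%, 34.9% and 43.4% of all genes were lower. Their median log2 fold changes were -1.31, -1.44 and -3.62, against -0.21, -0.20 and -0.35 over all genes. The calls held under TMM, RLE, library totals and TMM without mitochondrial transcripts, except for mt-Nd6 in NK cells, which was not called with library totals (-0.24, adjusted p = 0.357). Without the 10% limit the neutrophil median was -3.02, and all 13 genes were still called.

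mt-Co1 encodes the catalytic subunit of cytochrome c oxidase, complex IV. It stood at 5276, 5614, 7285 and 5862 CPM in B cells, at 2928, 2729, 4001 and 3128 in NK cells and at 989.5, 1032, 1622 and 1069 in neutrophils. The 3 classes did not overlap. Its log2 fold change against B cells was -1.47 (SE 0.08, adjusted p = 2.4e-37) in NK cells and -2.24 (SE 0.09, adjusted p = 3.9e-54) in neutrophils. The other complex IV genes, mt-Co2 and mt-Co3, had -3.00 (SE 0.08) and -2.38 (SE 0.08) in neutrophils.

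Among the 7 complex I genes the neutrophil values spread more widely. mt-Nd4l stood at 1766, 1889, 1652 and 1794 CPM in B cells and at 29.9, 108, 111 and 36.5 in neutrophils, a log2 fold change of -4.39 (SE 0.17, adjusted p = 5.7e-15). mt-Nd4 stood at 776, 864, 1317 and 909 and 89.6, 204, 269 and 83.4, a log2 fold change of -2.41 (SE 0.11, adjusted p = 1.1e-33). Both encode membrane subunits, and their groups of libraries did not overlap. mt-Nd1, mt-Nd2, mt-Nd3 and mt-Nd5 had -3.65, -3.74, -3.62 and -3.74. mt-Nd6, encoded on the other strand (chrM:13552-14070, minus strand), had 1145 UMIs in B cells and 1 in neutrophils, a ratio of levels of 45.3 with a counting interval of 8.12 to 1792.

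mt-Cytb, the only mitochondrial subunit of complex III, stood at 1843, 2022, 2328 and 2031 CPM in B cells and 93.8, 171, 277 and 88.7 in neutrophils (-3.51 (SE 0.21, adjusted p = 2.0e-09)). The complex V genes mt-Atp6 and mt-Atp8 had -3.13 (SE 0.12) and -4.28 (SE 0.12). mt-Co1 made up 36.0% to 43.8% of the mitochondrial UMIs of neutrophils and 23.3% to 24.98% of those of B cells (31.9% to 41.3% and 23.4% to 24.99% without the 10% limit). Differences among the mitochondrial genes were not tested against each other.

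T cells lay close to B cells. Of the 13 genes 4 were lower, mt-Nd1 (-0.26), mt-Nd5 (-0.20), mt-Co2 (-0.15) and mt-Co3 (-0.15), beside 28.3% of all genes, and none was higher. With RLE factors or without the mitochondrial limit 0 were lower, and with library totals 10. Without Cured 2 none was lower and 1 was higher, without Relapsed 1 the number lower was 1, and without Relapsed 2 it was 2.

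**Figure D2:**
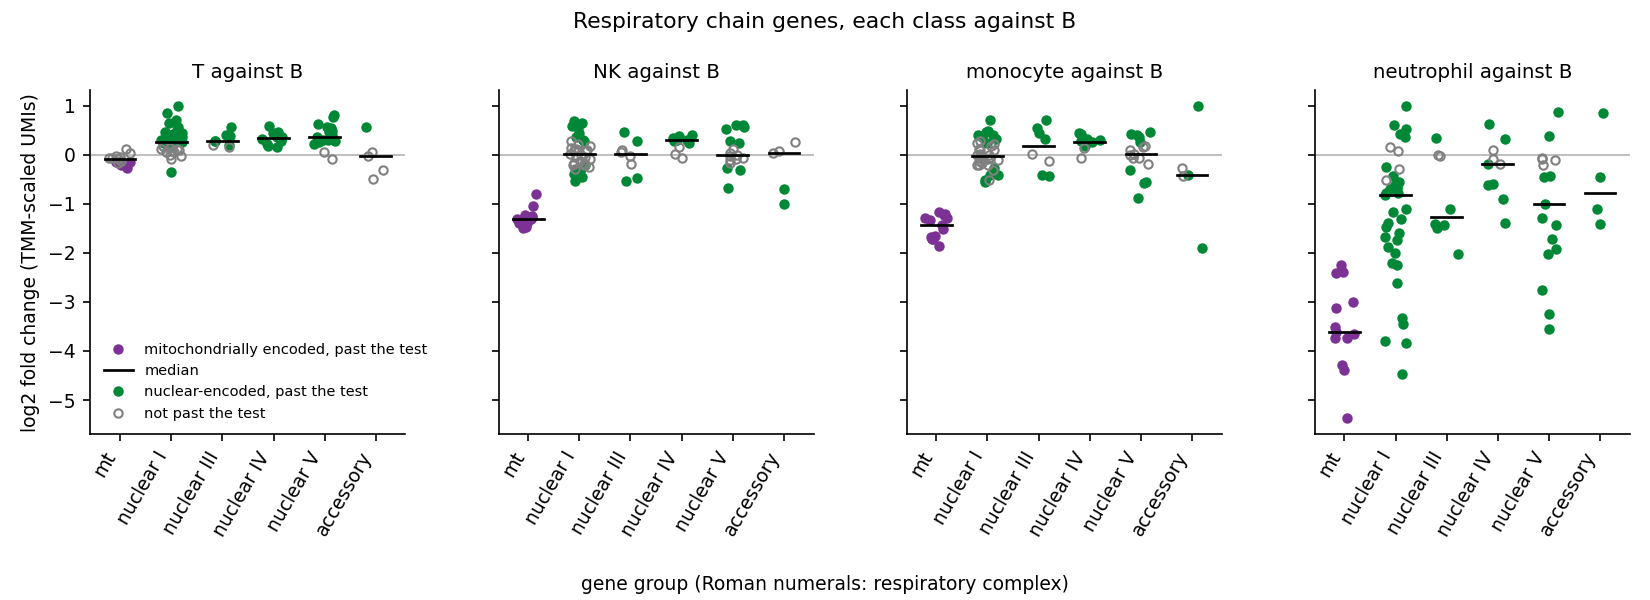
Log2 fold change of each tested gene against B cells after TMM scaling, by class and gene group. Points are genes, filled where the edgeR adjusted p is under 0.05, and bars are group medians. Ndufaf4 is left out of the neutrophil panel because it had no UMI there. Mitochondrial genes have medians of -1.31 in NK cells, -1.44 in monocytes and -3.62 in neutrophils.

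The balance of the 2 genomes differed by complex. In B cells the mitochondrially encoded UMIs per nuclear-encoded subunit UMI were 2.49 to 3.22 for complex IV, 0.961 to 1.21 for complex III, 0.871 to 1.15 for complex I and 0.653 to 0.736 for complex V over the 4 libraries. In NK cells they were 0.759 to 1.07, 0.388 to 0.602, 0.334 to 0.458 and 0.259 to 0.290. In neutrophils they were 0.409 to 0.779, 0.0798 to 0.272, 0.0519 to 0.218 and 0.0607 to 0.150. For each complex every NK and neutrophil library lay below every B cell library.

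The nuclear-encoded genes, accessory ones included, were mostly higher in T cells, mostly lower in neutrophils and split in NK cells and monocytes. Of 77 tested, 56 were higher and 1 lower in T cells, where 25.2% of all genes were higher and 28.3% lower. In neutrophils 11 were higher and 53 lower (33.2% and 43.4% of all genes). In NK cells 23 were higher and 13 lower (19.2% and 35.3%), and in monocytes 26 and 14 (26.3% and 34.9%). Their median log2 fold changes were 0.29 in T cells, -0.79 in neutrophils, 0.05 in NK cells and 0.02 in monocytes. The split in NK cells turned with the scaling, to 38 higher and 5 lower with RLE factors and 67 higher and 0 lower with library totals. In monocytes library totals gave 51 higher and 2 lower. The calls over all genes turned too. Of these 35.2% were higher in NK cells with TMM factors, 49.4% with RLE factors and 72.5% with library totals. In monocytes the shares were 43.0%, 47.0% and 64.3%. With cells thinned to a common depth 13 were higher in T cells, 8 in NK cells, 2 in monocytes and 4 in neutrophils. Without Cured 2 the number lower in NK cells was 8, without Relapsed 2 the number lower in monocytes was 8, and without Cured 1 the number lower in T cells was 2. Called in the same direction under all 4 scalings were 31 higher and 1 lower in T cells, 9 and 50 in neutrophils, 23 and 0 in NK cells, and 26 and 2 in monocytes. The shares of all genes for thinned cells, left-out libraries and all 4 scalings together are not given here.

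Complex I held the nuclear subunits with the largest rises. Ndufv3, a small subunit of the NADH-binding module (chr17:31520115-31531331, plus strand), stood at 253, 257, 244 and 255 CPM in T cells and at 135, 139.6, 144 and 139.6 in B cells. The classes did not overlap, and the log2 fold change was 0.99 (SE 0.08, adjusted p = 3.4e-22). Ndufa10, Ndufa9 and Ndufa13 were higher in T cells as well, by 0.84 (SE 0.11), 0.72 (SE 0.14) and 0.64 (SE 0.07) on the log2 scale. Ndufs8, which carries iron-sulfur clusters, was lower (-0.34 (SE 0.11, adjusted p = 0.00367)), and was not called with thinned cells (-0.52, adjusted p = 0.0655). In T cells 24 of 37 complex I subunits were higher and 1 lower, beside 25.2% and 28.3% of all genes.

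Ndufa4, named as a complex I subunit and now regarded as part of complex IV (chr6:11900292-11907497, minus strand), stood at 1053, 926, 994 and 872 CPM in NK cells against 381, 416, 402 and 418 in B cells. Its log2 fold change was 0.70 (SE 0.08, adjusted p = 7.5e-15). Ndufa1 (0.65 (SE 0.09)) and Ndufa13 (0.59 (SE 0.08)) were also higher in NK cells. In NK cells 8 of 37 complex I subunits were higher and 6 lower, beside 19.2% and 35.3% of all genes. In monocytes the counts were also 8 and 6 (26.3% and 34.9% of all genes), led upward by Ndufb8 (0.72 (SE 0.11, adjusted p = 1.6e-08)).

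Several complex I subunits were nearly absent from neutrophils. Ndufa12 had 0, 1, 0 and 2 UMIs in the 4 neutrophil libraries and 1900 in B cells, a ratio of levels of 25.1 with a counting interval of 8.57 to 122. Ndufa9 had 2 UMIs against 835, a ratio of 16.5 (4.56 to 137). Ndufa5 and Ndufc2 had 9 and 13 UMIs and log2 fold changes of -3.79 (SE 0.29) and -3.46 (SE 0.26). Other complex I subunits went the opposite way. Ndufb9 (chr15:58933756-58939488, plus strand) stood at 316, 287, 230.1 and 271 CPM in neutrophils against 147 to 153 in B cells, a log2 fold change of 0.99 (SE 0.11, adjusted p = 1.7e-14). Ndufb7 and Ndufa7 had 0.61 (SE 0.12) and 0.52 (SE 0.09), and Ndufb7 was not called with thinned cells (0.27, adjusted p = 0.146). Of 37 subunits 28 were lower and 5 higher in neutrophils, beside 43.4% and 33.2% of all genes.

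The most counted complex I subunits were Ndufa3 and Ndufa6. Ndufa3 stood at 452, 453, 466 and 481 CPM in B cells and 593, 612, 471 and 636 in neutrophils, and Ndufa6 at 491, 469.6, 477 and 479 and 282, 262, 199.6 and 302. Ndufa6 was lower in neutrophils with no overlap. Ndufa3 was higher in neutrophils in all 4 libraries and was called (0.43 (SE 0.08, adjusted p = 3.0e-06)), although the neutrophil value of Relapsed 1 lay within the B cell range.

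Ndufaf4 is an assembly factor of complex I (chr4:24898083-24905001, plus strand). It stood at 42.0, 40.7, 43.6 and 35.5 CPM in B cells and had no UMI among 1027246 neutrophil UMIs. With a limit of 3 counts over the 4 libraries together, this allows up to 2.92 CPM and makes the gene at least 13.7-fold lower. In monocytes it had 0, 4, 4 and 5 UMIs (-1.91 (SE 0.34, adjusted p = 2.8e-07)) and in NK cells 7, 14, 9 and 11 (-0.998 (SE 0.22, adjusted p = 4.7e-05)). With library totals the NK cell call was lost (-0.43, adjusted p = 0.100). Ndufaf7, a methyltransferase that acts on a complex I subunit, was higher in monocytes (0.98 (SE 0.27, adjusted p = 9.3e-04)) and neutrophils (0.85 (SE 0.31, adjusted p = 0.0101)), on 46 and 33 UMIs. The monocyte call was lost without Relapsed 2 (0.75, adjusted p = 0.0549) and the neutrophil call without Relapsed 1 (0.51, adjusted p = 0.240).

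In complex III, Uqcrh, the hinge protein, stood at 726, 682, 801 and 738 CPM in B cells and 307, 316, 302 and 344 in neutrophils, with no overlap. In NK cells it stood at 744, 674, 812 and 764, overlapping B cells, and its log2 fold change was -0.53 (SE 0.07) with TMM factors and 0.035 with library totals. Uqcrfs1, the Rieske iron-sulfur protein, likewise had -0.48 (SE 0.13) and 0.0897 in NK cells. Uqcr10, a small subunit, stood at 212, 212, 219 and 231 in B cells and 306, 288, 328 and 398 in NK cells. With TMM factors 2 of 8 complex III subunits were called higher in NK cells, beside 19.2% of all genes. They were Uqcrb and Uqcrq, and Uqcr10 was not called higher. Uqcrq and Uqcrb, which lie near the cytochrome b core, were higher in monocytes (0.70 (SE 0.10) and 0.55 (SE 0.10)), and Uqcrb was not called with thinned cells (0.23, adjusted p = 0.384). In neutrophils 5 of 8 complex III subunits were lower and 1 higher, beside 43.4% and 33.2% of all genes.

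In complex IV, 5 of 10 tested subunits were lower and 2 higher in neutrophils, beside 43.4% and 33.2% of all genes. The median log2 fold change of complex IV was -0.19, against -0.82 for complex I, -1.26 for complex III and -1.01 for complex V. Cox8a, its most counted nuclear subunit (chr19:7215153-7217616, minus strand), stood at 929, 934, 882 and 982 CPM in B cells and at 1467, 1294, 1178 and 1366 in neutrophils. The log2 fold change was 0.63 (SE 0.07, adjusted p = 6.9e-16), and no neutrophil library overlapped a B cell library. In NK cells Cox8a reached 1772, 1761, 1799 and 1813. Cox4i1, a regulatory subunit, stood at 689, 721, 744 and 741 in B cells and 614, 595, 599 and 511 in neutrophils. All 10 complex IV subunits were higher in T cells, 7 in NK cells and 8 in monocytes, beside 25.2%, 19.2% and 26.3% of all genes. None was lower in those 3 classes, beside 28.3%, 35.3% and 34.9%. Cox7a2l, a factor that joins complexes III and IV into supercomplexes, was lower in NK cells (-0.71 (SE 0.12, adjusted p = 4.0e-08)) with TMM factors and not called with library totals (-0.14, adjusted p = 0.301), at levels of 117, 194, 146 and 123 against 162, 160.4, 165 and 156.

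Forms of complex IV subunits that are typical of muscle, lung or testis were absent or nearly so. No UMI of Cox4i2, Cox7b2, Cox8b, Cox8c or of the complex I relative Ndufa4l2 was found among 36416604 kept UMIs, which allows up to 0.0824 CPM. Cox6a2, Cox6b2 and Cox7a1 had 112, 36 and 25 UMIs. Their widespread partners stood far above in B cells: Cox4i1 at 724 ± 25.6, Cox6a1 at 241 ± 13.6, Cox6b1 at 371 ± 15.3, Cox7a2 at 303 ± 13.2, Cox7b at 206 ± 16.2 and Ndufa4 at 404 ± 16.7 CPM (SD, n = 4). The remaining 94 members had at least 267 UMIs each.

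Promoters are shown for a detected and an undetected form of the same subunit and for Ndufaf4, from RefSeq (GRCm38.p6, 250 bases before to 50 after the start). Cox8a (chr19:7217567-7217866, minus strand) holds 19 CG dinucleotides and matches to CCGGAAG, a core bound by ETS factors, here on the reverse strand as CTTCCGG. Cox8b (chr7:140900397-140900696, minus strand) holds 2 CG dinucleotides and TATAAA. Ndufaf4 (chr4:24897833-24898132, plus strand) holds 28 CG dinucleotides and the 10-base palindrome bound by NRF1. Capitals mark these matches.
Cox8a: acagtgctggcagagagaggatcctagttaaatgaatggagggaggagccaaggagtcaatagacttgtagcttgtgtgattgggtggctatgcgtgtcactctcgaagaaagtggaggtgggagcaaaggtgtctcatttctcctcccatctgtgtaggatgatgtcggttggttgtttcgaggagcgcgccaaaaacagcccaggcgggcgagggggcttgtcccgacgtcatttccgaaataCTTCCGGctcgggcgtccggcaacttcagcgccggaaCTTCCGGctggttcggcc
Cox8b: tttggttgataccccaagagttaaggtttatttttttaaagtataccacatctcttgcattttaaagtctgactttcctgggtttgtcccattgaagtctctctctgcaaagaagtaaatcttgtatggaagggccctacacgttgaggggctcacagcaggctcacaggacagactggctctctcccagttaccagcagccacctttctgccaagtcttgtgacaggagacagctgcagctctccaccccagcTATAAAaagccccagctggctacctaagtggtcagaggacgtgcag
Ndufaf4: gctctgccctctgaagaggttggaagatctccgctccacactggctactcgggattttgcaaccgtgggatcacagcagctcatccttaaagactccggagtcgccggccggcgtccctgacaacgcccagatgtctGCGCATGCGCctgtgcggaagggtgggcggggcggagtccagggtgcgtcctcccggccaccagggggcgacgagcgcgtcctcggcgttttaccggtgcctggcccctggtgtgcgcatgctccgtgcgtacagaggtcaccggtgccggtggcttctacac

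Of the 89 nuclear genes 73 matched a promoter in the table. The NRF1 palindrome, as in capitals for Ndufaf4, was found in 7 of them (9.59%, against 0.977% of all 27025 promoters), CCGGAAG on either strand in 16 (21.9% against 9.12%) and TATAAA on either strand in 8 (11% against 14.2%). The median promoter of these genes held 20 CG dinucleotides and the median of all promoters 7. A match describes letters and not a bound site.

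In complex V, Atp5g1, Atp5g2 and Atp5g3 encode precursors of the same mature c subunit, whose ring turns in the membrane. Atp5g2 (chr15:102662864-102672352, minus strand) stood at 884, 881, 798 and 902 CPM in B cells, at 646, 665, 547 and 596 in monocytes and at 107, 70.7, 88.7 and 62.6 in neutrophils. The 3 classes did not overlap, and the log2 fold change in monocytes was -0.89 (SE 0.08, adjusted p = 5.4e-19). Atp5g1 stood at 25.6, 8.32, 11.1 and 36.5 in neutrophils against 227, 247, 221 and 249.9 in B cells (-3.54 (SE 0.22, adjusted p = 2.5e-31)). Atp5g3 stood at 96.5 ± 9.76 in neutrophils and 432 ± 21.4 in B cells (SD, n = 4). All c subunit genes were thus lower in neutrophils than in B cells.

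Other complex V subunits were higher outside B cells. Atp5l, a membrane subunit (chr9:44912557-44920742, minus strand), stood at 1105, 911, 954 and 928 CPM in neutrophils and at 556, 564, 603 and 578 in B cells, a log2 fold change of 0.88 (SE 0.07, adjusted p = 5.4e-22). Atp5h, part of the peripheral stalk, was higher in T cells (0.81 (SE 0.07)) and NK cells (0.61 (SE 0.07)), as was Atp5j2 (0.77 (SE 0.07) and 0.57 (SE 0.08)). Atp5md was higher in NK cells (0.61 (SE 0.08)). Atp5b and Atp5a1, subunits of the catalytic head, were lower in monocytes (-0.57 (SE 0.12) and -0.56 (SE 0.11)) with TMM factors, and both calls were lost with library totals (-0.19 and -0.18, adjusted p = 0.149 and 0.164). Atp5e, the most counted nuclear gene of all, stood at 1101, 1130.3, 1208 and 1198 in B cells and 1041, 1024, 893 and 1053 in neutrophils. Many of these nuclear genes have processed pseudogenes, and how reads shared with such copies were counted is not given in the sources used here.

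Within T cells, CD8 cells (153 to 268 per library) were compared with CD4 cells (22 to 50 per library). Of the 13 mitochondrial genes 4 were higher in CD8 cells, beside 3.53% of 3030 genes, and none was lower, beside 1.95%. mt-Co1 stood at 4933, 4913, 6382 and 5069 CPM in CD8 cells and at 4171, 4040.1, 5530.0 and 4218 in CD4 cells, and was higher in all 4 libraries (0.40 (SE 0.10, adjusted p = 0.00599)). mt-Nd5 (0.58 (SE 0.14, adjusted p = 0.00400)), mt-Nd4l (0.39 (SE 0.10, adjusted p = 0.00944)) and mt-Nd2 (0.37 (SE 0.11, adjusted p = 0.0305)) were the others, and only mt-Co1 was called under all 4 scalings. Without Cured 1 or without Cured 2 the number was 1. mt-Co1 was not called without Cured 1, Cured 2 or Relapsed 2 (adjusted p = 0.162, 0.0675 and 0.0655). None of 75 nuclear-encoded genes passed edgeR's test, while 2 did without Relapsed 1 and 1 without Relapsed 2.

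The overlapping pairs split their UMIs differently in Relapsed 1 and in neutrophils. mt-Nd4l took 69.5%, 68.6%, 55.6% and 66.4% of the UMIs of mt-Nd4l and mt-Nd4 in B cells and 73.0%, 70.6%, 58.2% and 68.9% in T cells. It took 63.8%, 65.1%, 54.5% and 64.7% in NK cells and 61.2%, 64.1%, 50.3% and 61.2% in monocytes. Relapsed 1 was lowest in these 4 classes. In neutrophils the share was 25%, 34.7%, 29.2% and 30.4%, below every value of the other classes. These shares rested on 7, 26, 40 and 7 UMIs of mt-Nd4l and 21, 49, 97 and 16 of mt-Nd4. Their counting intervals ended at 44.9%, 46.5%, 37.6% and 52.9%. All but that of Relapsed 1 overlapped the interval of monocytes in Relapsed 1, which began at 44.7%. Within each library the neutrophil interval lay below those of the other classes. Without the 10% limit, which added 4 neutrophils in Relapsed 1 and 1 in Relapsed 2, the neutrophil share was 25%, 34.7%, 33.5% and 46.9%. It was still below every value of the other classes (at least 51.3%).

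mt-Atp8 took 39.4% ± 3.98 of the UMIs of mt-Atp8 and mt-Atp6 in B cells, 40.9% ± 4.02 in T cells, 38.3% ± 4.88 in NK cells, 36.4% ± 5.30 in monocytes and 21.7% ± 6.17 in neutrophils (SD, n = 4). By library it was 37.7%, 42.6%, 34.6% and 42.7% in B cells, lower in replicate 1 of each group. T cells, NK cells and monocytes ran the same way. Neutrophils did not, with 20.7% in Relapsed 1 and 15.8% in Relapsed 2. The neutrophil values rested on 13, 24, 44 and 9 UMIs of mt-Atp8 and 52, 55, 169 and 48 of mt-Atp6. The counting intervals of neutrophils in Relapsed 1 and Relapsed 2 overlapped (15.4% to 26.7% and 7.48% to 27.9%). In B cells mt-Nd4 was higher in Relapsed 1 (1317 CPM) than in the other libraries (776 to 909), while mt-Nd4l was lower (1652 against 1766 to 1889). How reads on the shared bases were assigned is not given in the sources used here.

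**Figure D3:**
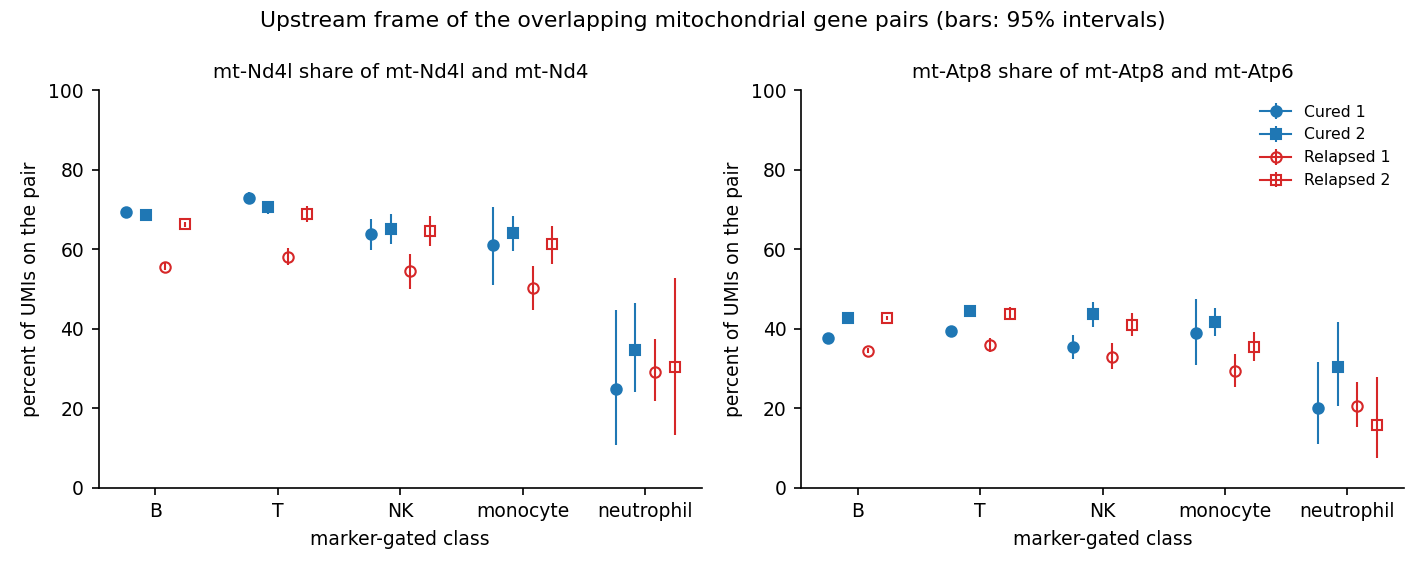
Percent of the UMIs of each overlapping pair that were assigned to the upstream gene, mt-Nd4l (left) and mt-Atp8 (right), by class and library. Bars are exact 95% binomial intervals for counting error. Relapsed 1 is lowest for mt-Nd4l in B, T and NK cells and monocytes, and neutrophils lie at 25% to 34.7%.

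No respiratory chain gene passed edgeR's test between Cured and Relapsed libraries, in all kept cells or in any of 7 classes. Over all genes 0% were called in all kept cells, B cells, NK cells, neutrophils and CD4 T cells, 0.0619% in T cells, 0.407% in CD8 T cells and 0.0562% in monocytes. At an unadjusted p under 0.05 there were 2 of 95 members in all kept cells (7.59% of all genes), 6 of 94 in B cells (8.64%), 2 of 93 in T cells (8.33%) and 3 of 91 in CD8 T cells (8.74%). There were 4 of 91 in NK cells (6.77%), 3 of 65 in neutrophils (3.74%), 4 of 87 in monocytes (5.76%) and 2 of 78 in CD4 T cells (4.31%). DESeq2 also called 0 members in each. With 2 libraries against 2, an exact permutation test cannot go below p = 0.33. In all kept cells the makeup and the RNA per cell cannot be told apart.

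Most mitochondrial genes had a lower level in Cured libraries. In B cells 12 of 13 had a negative log2 fold change (Cured over Relapsed), with a median of -0.24, against -0.01 for 81 nuclear-encoded genes and 0.00 over all genes. The libraries of the groups did not overlap for 7 of the 13, beside 22.8% of all genes lower in Cured without overlap and 26 of 81 nuclear-encoded genes. mt-Co3 stood at 2079.9, 2244, 3243 and 2419.5 CPM, a log2 fold change of -0.39 (SE 0.14, adjusted p = 0.540). mt-Nd4 had -0.44 (SE 0.17, adjusted p = 0.540) and mt-Co1 had -0.28 (SE 0.11, adjusted p = 0.565). In each of these 3 genes Relapsed 1 was far above the other libraries and Relapsed 2 a little above the Cured ones.

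The remaining complex I genes in B cells were mt-Nd1 at -0.38, mt-Nd3 at -0.39, mt-Nd2 at -0.28, mt-Nd5 at -0.24, mt-Nd6 at -0.16 and mt-Nd4l at 0.08. mt-Cytb had -0.18, mt-Co2 -0.16, mt-Atp6 -0.14 and mt-Atp8 -0.04. The upstream genes of the 2 overlapping pairs thus had the values nearest to 0 or above it.

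The medians were negative in the other classes too. They were -0.27 in T cells, -0.28 in CD8 T cells, -0.26 in CD4 T cells, -0.24 in NK cells, -0.37 in neutrophils and -0.26 in monocytes, and the nuclear-encoded medians -0.02, -0.02, 0.00, -0.05, 0.11 and 0.06. Without the 10% limit the mitochondrial median was -1.18 in neutrophils and -0.39 in monocytes. With thinned cells it was -0.16 in neutrophils and -0.17 in monocytes and CD4 T cells each, and with no count filter that of CD4 T cells was 0.07, with 8 of 13 genes positive. Genes lower in Cured without overlap numbered 6 of 13 in T cells (16.6% of all genes), 7 of 13 in CD8 T cells (15.4%) and 5 of 12 in CD4 T cells (11.5%). They numbered 4 of 13 in NK cells (16.5%), 4 of 12 in monocytes (18.3%) and 2 of 11 in neutrophils (15.2%). The smallest unadjusted p belonged to mt-Nd4 in T cells (-0.53 (SE 0.17, adjusted p = 0.275)) and CD8 T cells (-0.53 (SE 0.18, adjusted p = 0.199)), and to mt-Co3 in NK cells (-0.50 (SE 0.16, adjusted p = 0.573)). It belonged to mt-Nd1 in monocytes (-0.76 (SE 0.21, adjusted p = 0.320)), mt-Atp6 in neutrophils (-0.70 (SE 0.26, adjusted p = 0.984)) and mt-Cytb in CD4 T cells (-0.49 (SE 0.18, adjusted p = 1.000)). None of these differences passed the test.

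Without Cured 2 the medians were -0.53 in monocytes and -0.75 in neutrophils, and without Cured 1 that of monocytes was -0.16. The size of the medians rests largely on Relapsed 1. Without it the mitochondrial medians were -0.08 in B cells, -0.06 in T cells, -0.08 in NK cells, -0.10 in monocytes and 0.53 in neutrophils. In that setting 11 of 13 genes were negative in B cells, 12 of 13 in T cells and 8 of 13 in NK cells. In monocytes 8 of 12 were negative, and in neutrophils 4 of 11. Without Relapsed 2 the medians were -0.41, -0.42, -0.38, -0.44 and -0.64 in the same order of classes. In that fit the lone Relapsed library is assumed to vary like the Cured libraries. Calls of single genes from outcome fits with 1 library in a group are not given. Red-cell marker UMIs were highest in Relapsed 1, at 4201 CPM in B cells, and their part in the result was not tested. Without cells that carry a haemoglobin UMI the B cell share of mitochondrial UMIs in Relapsed 1 was 2.93%, against 2.92% with them.

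**Figure D4:**
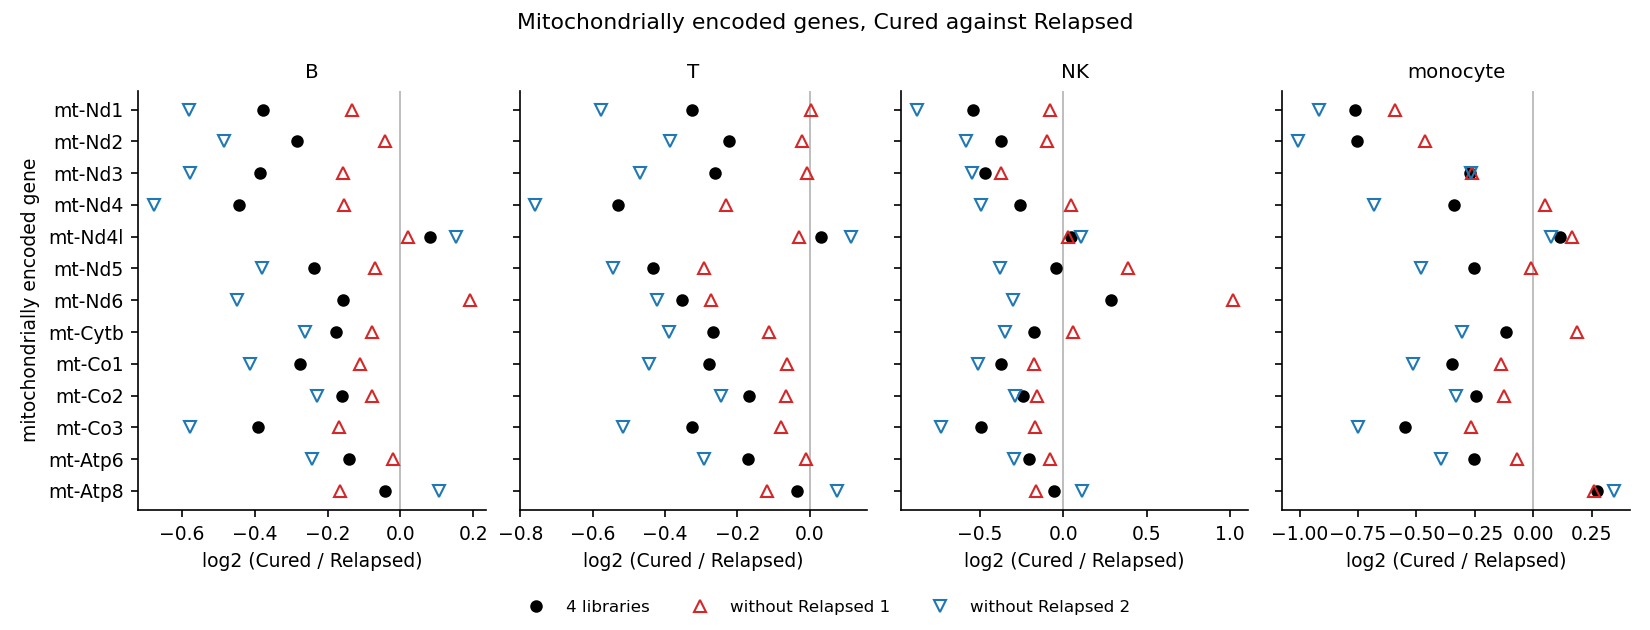
Log2 fold change (Cured over Relapsed) of the mitochondrial genes in B, T and NK cells and monocytes, with all 4 libraries, without Relapsed 1 and without Relapsed 2. Each point is a gene. The B cell median moves from -0.24 to -0.08 without Relapsed 1 and to -0.41 without Relapsed 2.

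Whether the outcome difference varied between classes was tested as an interaction over 6593 genes. No member was called, beside 0.091% of genes for T, 0.106% for NK, 0.137% for neutrophils and 0.182% for monocytes against B cells. The smallest adjusted p of a member was 0.612, for mt-Atp6 in neutrophils.

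Genes outside the chain that feed or maintain it were read from lists by function. None passed the test between Cured and Relapsed libraries. Between classes, Tfam, which packages and transcribes mitochondrial DNA, was lower than in B cells in T cells (log2 fold change -1.08), NK cells (-1.55) and monocytes (-2.15). Fh1, fumarase of the tricarboxylic acid cycle, was lower in the same 3 classes (-1.80, -2.06 and -1.73), and both were lower in neutrophils. Both were singled out after their values were seen. Of 5 tested genes on the list of Tfam 1 was lower in T cells (28.3% of all genes), 3 in NK cells (35.3%) and 3 in monocytes (34.9%), and none was higher. Of 14 tricarboxylic acid cycle genes 5 were lower and 0 higher in NK cells, and 6 lower and 2 higher in monocytes (19.2% and 26.3% of all genes higher). In neutrophils 4 of 5 tested genes of mitochondrial DNA transcription and RNA handling, 10 of 14 tricarboxylic acid cycle genes and 5 of 6 complex II and electron carrier genes were lower, beside 43.4% of all genes. In the same class 7 of 15 assembly genes were lower, a share near that of all genes, and 1 was higher (beside 33.2%), the copper chaperone Cox17 (1.57). Of 4 tested regulators of respiratory gene expression 2 were higher and 1 lower in neutrophils. In T cells 6 of 15 assembly genes were higher and 2 lower, and 3 of 14 tricarboxylic acid cycle genes were higher and 2 lower, beside 25.2% and 28.3% of all genes.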

How the data were processed

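Peripheral blood leukocytes of 2 Cured and 2 Relapsed pools were profiled by droplet RNA sequencing. The authors deposited UMI counts per gene and barcode, made with Cell Ranger 3.1.0, per the file headers. The build was mm10, per the submitters' processing notes. The annotation release is not given in the sources used here. Barcodes with at least 200 genes and at most 10% mitochondrial UMIs were kept, gated by markers and summed per library and class. The totals were 7184045 to 10840397 UMIs per library. Sums were tested with edgeR 4.0.16 (limma 3.58.1, R 4.3.3): TMM factors, the default count filter, robust quasi-likelihood fit, Benjamini-Hochberg adjustment over all genes tested and a threshold of 0.05. Contrasts between classes had the library as a block, and those between outcomes had no block. DESeq2 1.42.0 was an alternative. The test was also run on simulated counts with the same spread for all genes. For outcomes these had no library effect, so they do not show how the test behaves when a library such as Relapsed 1 stands apart. Shares have exact Clopper-Pearson 95% intervals (scipy 1.17.1, numpy 2.4.6, Python 3.11.15), and limits for a count of 0 use 3 counts. Intervals and limits cover counting error only.

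Genes named are the 13 mitochondrial genes, up to 6 called nuclear-encoded genes per class contrast and direction with the largest fold change and at least 20 CPM, the 3 members of smallest p per outcome comparison, the 2 most counted nuclear subunits per complex, and tissue-restricted isoforms with their partners. Atp5g3 and the list genes Tfam, Fh1 and Cox17 were named after their values were seen. A gene that the rule selected is not reported here. The members and lists were chosen with earlier results of these data known. Alternatives were other scalings, filters, gates, depths, a replicate block and each library left out. Leaving out cells with haemoglobin UMIs, leaving out barcodes with Cdkn2a, GFP or BCR-ABL UMIs, and thinning for summed levels were chosen after seeing the data.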

Additional observations from a re-analysis of the deposited data

Results flagged for a closer look

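Of 31 sets of 4 libraries, 4 had an extreme library whose gap to its nearest neighbour exceeded Dixon's 95% critical share of the range, and in each the extreme was Relapsed 1. Chance puts about 1 in 20 such sets past that value. The sets share cells and genes and are not independent. The mitochondrial share was 2.47% in T cells of Relapsed 1, against 2.02% to 2.08% in the others. In its CD4 T cells it was 2.32%, against 1.84% to 1.85%. In its NK cells the mitochondrial UMIs per nuclear-encoded UMI were 0.574, against 0.435 to 0.452. In its NK cells mt-Nd4l took 54.5% of the UMIs of mt-Nd4l and mt-Nd4, against 63.8% to 65.1%.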

How the results depend on the processing

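All 13 mitochondrial genes stayed lower in neutrophils and monocytes than in B cells under the 4 scalings, and without any single library also in NK cells. No member was called between outcomes under any setting that kept all 4 libraries.

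The counts of calls between classes moved as follows. For mitochondrial genes lower in T cells (4), RLE factors and no mitochondrial limit gave 0, library totals 10 and thinned cells 8. For nuclear-encoded genes higher in T cells (56), library totals gave 31 and thinning 13, and for those lower (1), library totals gave 5, no mitochondrial limit 2, the 5% limit 2, a gate of 2 markers 3 and thinning 0. In NK cells the numbers higher (23) and lower (13) became 38 and 5 with RLE factors and 67 and 0 with library totals, and thinning gave 8 higher. In monocytes (26 and 14) library totals gave 51 and 2, and thinning gave 2 higher. The calls over all genes moved with the scaling as well. The higher share of them in NK cells went from 35.2% to 49.4% with RLE factors and 72.5% with library totals. In monocytes it went from 43.0% to 64.3% with library totals. In neutrophils thinning gave 4 higher in place of 11. In these contrasts thinning was to 500 UMIs per cell, which kept the same cells and left fewer UMIs. The cause of the other changes was not tested. Between CD8 and CD4 T cells library totals gave 1 mitochondrial gene higher and 1 nuclear-encoded gene lower, and leaving mitochondrial transcripts out of library sizes, no limit, the 5% limit and the gate of 2 markers each gave 1 nuclear-encoded gene higher. With library totals Uqcrh and Uqcrfs1 in NK cells turned to 0.035 and 0.0897.

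Thinned to 500 UMIs per cell, the nuclear-encoded share was 1.89% in B cells, 2.98% in NK cells and 2.43% in monocytes (2.60% at 1000), and the monocyte ratio was 0.565.

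With each library left out in turn, members called between outcomes ranged from 0 to 16 in all kept cells, 0 to 14 in B cells, 0 to 3 in T cells, CD8 T cells and neutrophils each, and 0 to 4 in NK cells and monocytes each. The high ends were all without Relapsed 2, where a lone Relapsed library is left. The shares of all genes called in these outcome fits are not given here. The counts therefore cannot show whether members were called more often than other genes. Mitochondrial genes lower in T cells ranged from 0 to 5 and higher from 0 to 1, and nuclear-encoded genes lower from 1 to 2. Nuclear-encoded genes lower in NK cells and in monocytes ranged from 8 to 11 each. Between CD8 and CD4 T cells mitochondrial genes higher ranged from 1 to 5 and nuclear-encoded ones from 0 to 2. mt-Atp8 ranged from -0.14 to 0.24 in all kept cells and from -0.17 to 0.11 in B cells, and mt-Nd6 from -0.31 to 0.14 and from -0.45 to 0.19.

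With the replicate number as a replicate block, 0 members were called in each outcome comparison, and 94 genes in all kept cells, 54 in B, 42 in T, 32 in CD8 T, 9 in NK, 0 in neutrophils, 2 in monocytes and 4 in CD4 T cells, against 0, 0, 4, 22, 0, 0, 2 and 0 without it. Over all tested genes, deviations of same-numbered libraries correlated at -0.086 to 0.092. A correlation over all genes cannot show whether some genes share an effect of the replicate number.

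Neutrophil mitochondrial genes are limited by depth, with 468 to 1612 such UMIs per library, and CD4 T cells and monocytes by 22 to 50 and 27 to 108 cells.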

Other observations

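Cox6a2, the heart and muscle form of complex IV subunit VIa, was found in few cells, which were singled out after its values were seen. Its UMIs lay in 18 of 15439 kept cells, and none lay in gated B cells or neutrophils. Of them 96 lay in cells that also carried a UMI of Siglech, a marker of plasmacytoid dendritic cells. Such cells numbered 13 in all, and 9 of them carried Cox6a2. By gate, 7 of the 18 cells were dendritic, 3 NK, 2 T, 1 monocyte, 1 mixed and 4 in no class. Cells with Cox6a2 were found in all 4 libraries (1, 6, 6 and 5 cells). Their median depth was 3212 to 5875 UMIs per library, against 1814 to 2355 for all kept cells, and doublets were not tested for.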
